A study of Mus musculus with 4 samples.

Results

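White matter oligodendrocytes are the myelinating cells that lie among other oligodendrocytes in the fibre tracts. Here they were chosen by counts and position, in coronal sections of mouse brain at the level of the striatum in which transcripts were counted cell by cell with MERFISH, an imaging method that reads a barcode from each RNA molecule. Cells with at least 10 genes and a volume of at least 50 cubic micrometres were kept. A kept cell was called an oligodendrocyte when 6 marker genes (Mag, Mal, Cldn11, Trf, Mobp and Opalin) gave at least 10 transcripts and at least 15% of its transcripts, and it was placed in white matter when at least 40% of the other kept cells within 100 position units (taken as micrometres) were oligodendrocytes as well. This selected 8286 of 281824 kept cells and 8286 of 24322 oligodendrocytes. The 16036 oligodendrocytes with fewer such neighbours are called other oligodendrocytes below.

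The 4 sections came from C57BL/6NTac mice with no transgene or treatment, 2 sections at 2 months (Young) and 2 at 18 months (Aged). The study's reporting summary states that both sexes were used in alternating batches. Its methods name male mice for the single-cell sequencing and give no sex for MERFISH. The sex of each section is not given in the sources used here, so age and sex cannot be told apart. The methods call the samples biological replicates, and the labels name no animal. The section is the replicate in every test below. The main test, edgeR, shares estimates of spread among genes, so its p-values do not rest on a gene's own spread between sections alone. How far they lean on the shared estimate differs between comparisons, so sizes of p-values cannot be set against each other across comparisons. The SE printed with a log2 fold change was computed from the statistic of the same test and shares this limit. Tests between positions, and of differences in change, rest on the spread of differences within sections. The panel held 383 genes. White matter oligodendrocytes numbered 1695 and 1728 (Young) and 2304 and 2559 (Aged), with a median of 311, 259, 167 and 220 transcripts a cell in the same order, so the Aged cells were measured at lower depth. Their median volume was 757, 768, 796 and 778 cubic micrometres.

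Oligodendrocytes wrap axons in myelin and supply them with metabolites. They arise from dividing precursors that carry the receptor Pdgfra, pass through a committed stage marked by the receptor Gpr17, and then switch on myelin genes. In ageing rodent white matter, oligodendrocytes with immune-type transcripts, such as the complement gene C4b and the protease inhibitor gene Serpina3n, have been described, and the supply of new oligodendrocytes is known to slow.

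The label held against the gene lists given here, but not against every gene of another cell type. All 11 further oligodendrocyte genes on a fixed list, among them Tspan2, Gatm, Olig1 and Il33, stood at 49.3 transcripts per 10000 or more in each of the 4 sections, while the neuron list of 9 genes summed to 36.7 to 45.7 per 10000 and the astrocyte list of 8 genes to 78.3 to 104. The microglia list of 11 genes summed to 59.9 to 65.4, and the ependymal list of 3 genes to 2.12 to 3.04. One exception was Gfap, an astrocyte gene outside the astrocyte list. With each cell thinned to 100 transcripts, Gfap was found in 51.6% and 46.1% of Young and 60.8% and 53.7% of Aged cells. Apoe, a lipid carrier gene also outside the lists given here, was found as widely. After the same thinning its shares were 56.4% and 50% of Young and 58.7% and 65.3% of Aged cells. Levels are given throughout as transcripts of a gene per 10000 panel transcripts, summed over the cells of a section. The 6 rule markers served to choose the cells, so their values are a description. They made up a median of 29.5%, 29.9%, 28.4% and 26.9% of a cell's transcripts in Young replicate 1, Young replicate 2, Aged replicate 1 and Aged replicate 2, and this order of sections is kept below. Mal, a myelin proteolipid, stood at 768, 758, 829 and 634, and Opalin, a myelin protein of the paranodes, at 131, 144, 101 and 122.

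The neighbour cut had no sharp step. Oligodendrocytes just inside it, with 40 to 45% oligodendrocyte neighbours, had 8.74, 8.22, 52.6 and 30.3 C4b transcripts per 10000, and those just outside it, with 35 to 40%, had 15.5, 7.35, 37.3 and 41.9. For Il33 the values just inside were 189, 243, 444 and 391, and just outside 174, 222, 458 and 357.

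White matter oligodendrocytes were a larger share of the kept cells in the Aged sections. The share was 2.49% and 2.44% in Young (2.47% ± 0.0358, SD, n = 2) against 3.37% and 3.43% in Aged (3.40% ± 0.0435, SD, n = 2), without overlap. With 2 sections against 2 a two-sided exact permutation test cannot go below p = 0.333, which is the value it gave here, so no share can pass a threshold of 0.05 by this test. Of all oligodendrocytes, 30.6% and 32.0% lay in white matter in Young against 35.5% and 37.1% in Aged. The length of tract in each section was not measured. With the marker share raised to at least 30% for the cells and their neighbours, which left 82, 143, 96 and 11 cells, the difference turned to -0.0838 percentage points. In the gene tests below, the raised share was asked of the cells alone and not of their neighbours. That kept 790, 846, 925 and 761 white matter cells.

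The cells formed the same shapes in each section. Linked through neighbours within 100 units, most of them lay in a band that ran over 1000 units, with 1542, 1963 and 2246 cells in Young replicate 2, Aged replicate 1 and Aged replicate 2, while in Young replicate 1 the band was in pieces of 744 and 678 cells. Each section also held a pair of compact patches, with 225, 150, 296 and 226 cells in all, surrounded by tissue on every side. The labels give no anatomy, so the band and the patches are not named here. The remaining 48, 36, 45 and 87 cells lay in small or marginal groups.

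Among the cells around white matter oligodendrocytes, precursor-rich, neuroblast-rich, astrocyte-rich and spiny-neuron-rich cells made up a lower share and microglia-rich cells a higher one in both Aged sections. Precursor-rich cells, those with at least 5 transcripts and 5% of their transcripts from the precursor list, made up 4.26% and 4.73% of the neighbours within 100 units in Young against 2.25% and 2.63% in Aged. Neuroblast-rich cells made up 1.03% and 0.763% against 0.151% and 0.230%, and around other oligodendrocytes 0.525% and 0.692% against 0.176% and 0.102%. The astrocyte-rich share was 13.1% and 11.5% against 10.3% and 10.9%, and the spiny-neuron-rich share 2.53% and 2.10% against 1.09% and 1.68%. Microglia-rich cells went the other way, at 2.56% and 2.41% against 3.49% and 3.14%. In each of these classes the ages did not overlap around white matter oligodendrocytes (exact permutation p = 0.333, the smallest possible). Around other oligodendrocytes the microglia-rich share was 3.44% and 3.31% against 3.13% and 3.30%. The other falls were seen there too. Precursor-rich cells made up 2.63% and 2.58% against 1.93% and 1.79%, and astrocyte-rich cells 12.2% and 11.9% against 11.5% and 11.3%. Spiny-neuron-rich cells made up 15.4% and 14.4% against 11.4% and 13.1%. Cells that met no class were 5.10%, 9.47%, 12.4% and 8.94% of the neighbours of white matter oligodendrocytes, the lowest share in the deepest section and the highest in the shallowest, and the part of depth in these class shares was not tested.

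**Figure D1:**
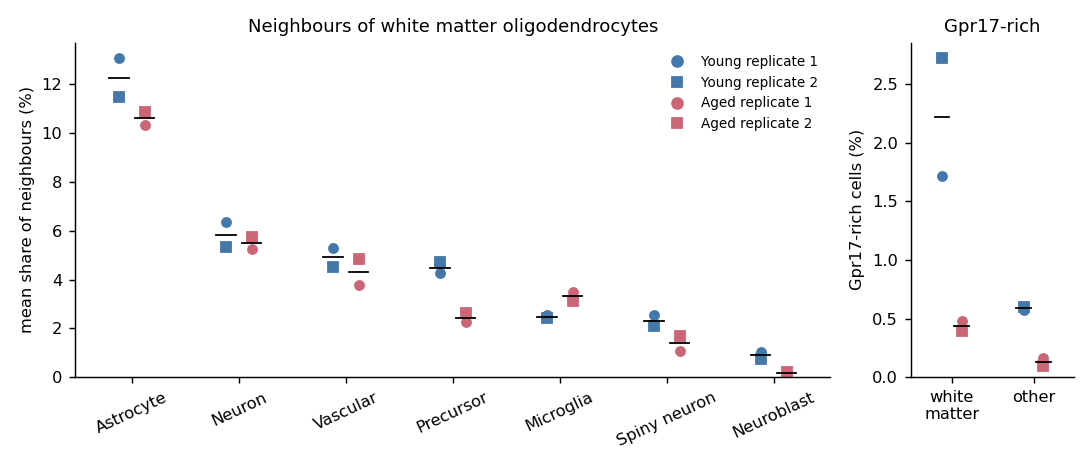
Left, mean share of each marker class (x axis) among the kept cells within 100 units of a white matter oligodendrocyte (y axis, percent). Right, share of oligodendrocytes rich in Gpr17 (percent). Circles and squares are replicates 1 and 2, blue is Young, red is Aged and the black bar is the mean of 2 sections. Precursor-rich, neuroblast-rich, astrocyte-rich and spiny-neuron-rich neighbours are lower in both Aged sections, microglia-rich neighbours are higher, and Gpr17-rich cells in white matter are at 1.71% and 2.72% in Young against 0.477% and 0.391% in Aged.

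With age, white matter oligodendrocytes gained transcripts of C4b, Ano1, Il33 and Spock3 and lost transcripts of Gpr17, Marcks, Rims2 and Top2a. Across the panel, edgeR's quasi-likelihood test on counts summed by section called 40 of 372 genes tested outside the 6 rule markers (10.8%) at an adjusted p under 0.05, with 19 higher (5.11%) and 21 lower (5.65%) in Aged, while 75 genes had an unadjusted p under 0.05. None of the 6 rule markers was called. The median change over the genes tested was -0.05 on the log2 scale.

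The complement gene C4b, on the minus strand of chromosome 17 at positions 34728380 to 34743882 (GRCm38, GENCODE annotation), gave 4.87 and 5.54 transcripts per 10000 in Young against 50.6 and 33.6 in Aged. The lowest Aged section was thus far above the highest Young section. The log2 fold change was 3.10 ± 0.23 (SE; edgeR adjusted p = 3.39e-35), or 8.58-fold. C4a, a near-identical neighbouring gene, may share its probes, which the files do not show. C4b rose as well in other oligodendrocytes, from 4.84 and 4.85 to 25.2 and 17.0 (log2 2.18 ± 0.19, edgeR adjusted p = 1.67e-08), and there 19 of 376 genes were called with age (5.05%). In astrocyte-rich cells of the same sections its level was 18.8, 17.2, 30.3 and 23.6, and in microglia-rich cells 2.64, 2.98, 7.49 and 4.82. In Aged sections white matter oligodendrocytes therefore held more C4b than the astrocyte-rich cells of the same section, and in Young sections less.

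To set depth aside, each cell was thinned to 100 transcripts, leaving out 196, 260, 557 and 400 shallower white matter cells. At this fixed depth 3.74% and 4.36% of the Young cells and 29.4% and 22.9% of the Aged cells had at least 1 C4b transcript (exact permutation p = 0.333). Without thinning the shares were 11.2%, 11.5%, 39.4% and 38.4%. Spiny-neuron-rich cells, those outside the oligodendrocytes with at least 5 transcripts and 10% of their transcripts from the spiny neuron list, served as a class that should lack C4b and had shares of 1.83%, 2.33%, 2.51% and 2.76% after the same thinning, from median depths of 597, 450, 290 and 406 transcripts. Young white matter cells thus lay much closer to this background than Aged cells did.

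Il33, which encodes a nuclear cytokine that oligodendrocytes store (chromosome 19, positions 29925114 to 29960718, plus strand, GRCm38), was already abundant in Young, at 205 and 218 per 10000, and stood at 469 and 379 in Aged. The groups did not overlap, and the log2 fold change was 1.09 ± 0.21 (edgeR adjusted p = 1.04e-05). After thinning to 100 transcripts, 74.2% and 78.1% of Young cells and 95.6% and 93.3% of Aged cells had an Il33 transcript. Most cells of either age thus held it. Among spiny-neuron-rich cells the shares were 3.04%, 3.23%, 6.24% and 6.35%, so this background was also higher in both Aged sections. Counted per cell volume in place of per transcript, the median gene stood 0.74 lower in Aged on the log2 scale, as the white matter cells held 447 and 387 (Young) against 233 and 311 (Aged) transcripts per 1000 cubic micrometres. On that scale Il33 differed by 0.37 (edgeR adjusted p = 0.345), whereas C4b stayed 2.36 higher (adjusted p = 1.87e-06). Spock3, described next, differed by 0.58 on that scale (adjusted p = 0.219).

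Ano1, a calcium-activated chloride channel gene (chromosome 7, positions 144588549 to 144751974, minus strand, GRCm38), rose from 0.598 and 0.714 to 5.14 and 4.30 per 10000 (log2 2.93 ± 0.36, edgeR adjusted p = 1.39e-13). It was a rare transcript, found after thinning in 0.267% and 0.681% of Young and 4.92% and 4.86% of Aged white matter cells. Among spiny-neuron-rich cells the shares were 0.829%, 0.755%, 1.39% and 1.07%, also higher in both Aged sections. Spock3, which encodes an extracellular proteoglycan, rose from 27.5 and 30.2 to 60.4 and 70.2 (log2 1.26 ± 0.21, adjusted p = 7.62e-08). Cbs, an enzyme gene of sulphur amino acid metabolism, rose from 17.9 and 16.5 to 42.1 and 28.6 (log2 1.13 ± 0.21). In all 3 genes both Aged sections lay above both Young sections.

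Further genes that rose were Cacna2d3, a calcium channel subunit gene (log2 1.67), Tm4sf1 (1.31), Serpina3n (1.25), Tenm2 (1.11), the intermediate filament gene Synm (0.90), and the lysosomal protease gene Ctss (0.68). The level of Serpina3n was low, at 1.59, 0.920, 2.15 and 3.40 per 10000, and its share of cells after thinning was 2.0%, 0.886%, 1.77% and 2.92%, which overlapped between the ages. Of the neuron list, 3 of 9 genes rose, Meg3 and Syp among them, where 5.11% of all genes tested did. With library totals 0 of the 9 were called, and with totals without the 6 markers 1 was. The summed level of the list was 38.7, 36.7, 39.7 and 45.7 per 10000. With library totals Serpina3n and Ctss were not called either. How far neighbouring neuronal RNA takes part in those 3 calls was not tested.

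**Figure D2:**
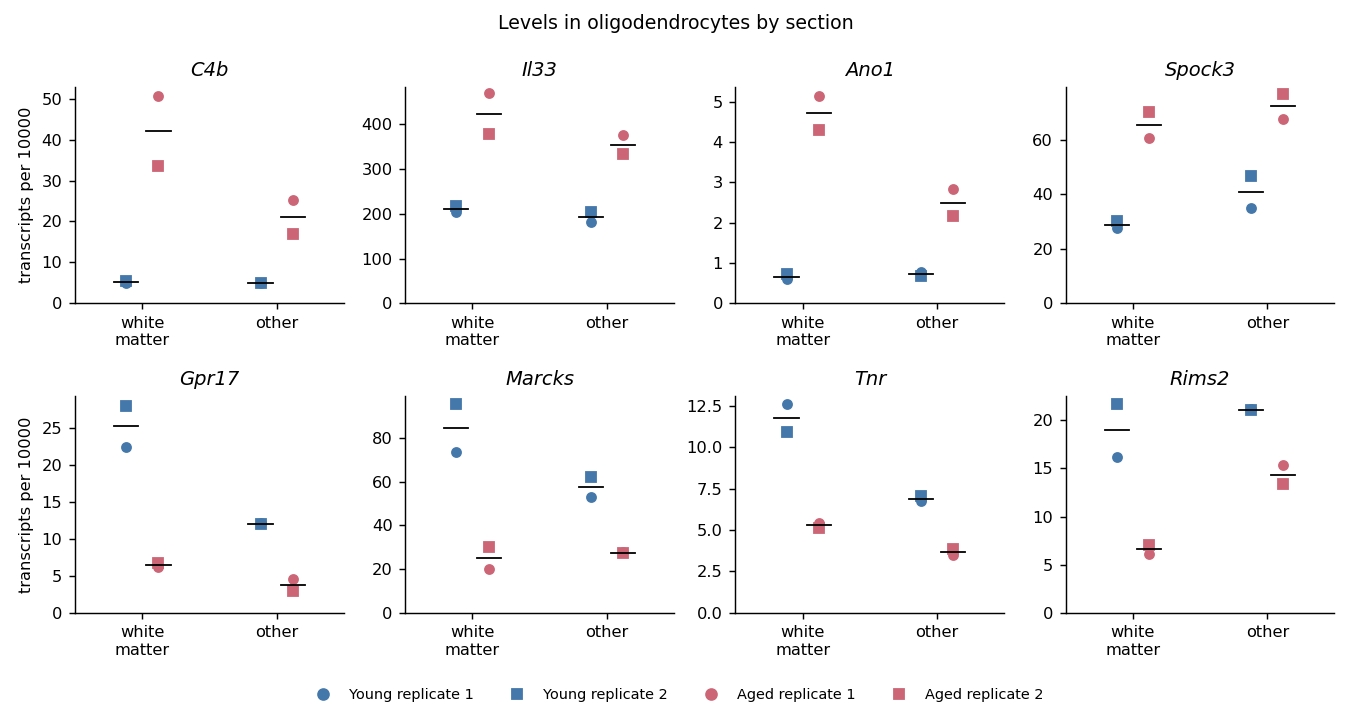
Level of 8 genes (transcripts per 10000, y axis from 0) in white matter and other oligodendrocytes (x axis) of each section. Circles and squares are replicates 1 and 2, blue is Young, red is Aged and the bar is the mean of 2 sections. C4b, Il33, Ano1 and Spock3 are higher in both Aged sections, and Gpr17, Marcks, Tnr and Rims2 are lower in both, in either set of cells.

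Genes that fell included Gpr17 and Tnr of the precursor list, together with Marcks and Rims2. Gpr17 stood at 22.4 and 28.0 per 10000 in Young against 6.22 and 6.71 in Aged (log2 -1.88 ± 0.23, edgeR adjusted p = 7.02e-14). Marcks, which encodes an actin-binding protein of membranes, fell from 73.8 and 95.3 to 20.2 and 29.9 (log2 -1.67 ± 0.21, adjusted p = 2.42e-13). Rims2, a scaffold gene of vesicle release, fell from 16.2 and 21.7 to 6.13 and 7.08 (log2 -1.44 ± 0.23). Tnr, the gene of the matrix protein tenascin-R, fell from 12.6 and 10.9 to 5.45 and 5.11 (log2 -1.07 ± 0.24). In these 4 genes every Aged section lay below every Young section.

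Of the 5 precursor genes on the fixed list, Gpr17 and Tnr fell, where 5.65% of all genes tested did. Pdgfra, C1ql1 and Ptprz1 were not called, with Pdgfra at 7.41, 9.48, 8.01 and 7.66 per 10000. Top2a, a topoisomerase gene of dividing cells, fell from 3.91 and 2.46 to 0.747 and 0.488 (log2 -2.29 ± 0.37), and Fabp7, a fatty acid binding protein gene of radial glia and astrocytes, from 1.43 and 1.93 to 0.339 and 0.442 (log2 -2.0 ± 0.42). The adhesion gene Cntn1 fell by 1.18 and Marcksl1, a relative of Marcks, fell by 0.82 on the log2 scale. Sirt2, a deacetylase of the myelin sheath, fell from 96.7 and 120 to 49.3 and 78.6 (log2 -0.68 ± 0.20, edgeR adjusted p = 0.0114), with the nearest Young and Aged sections apart by less than the Aged sections differed among themselves.

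A small group of cells was set apart as rich in Gpr17. Cells with at least 3 Gpr17 transcripts that made up at least 2% of their transcripts numbered 29, 47, 11 and 10 in white matter, or 1.71% and 2.72% of the Young and 0.477% and 0.391% of the Aged cells. Among other oligodendrocytes they were 0.573% and 0.600% against 0.167% and 0.0920%. They were chosen on Gpr17, and so its level in them is no result, but they also held 223, 145, 157 and 193 Tnr transcripts per 10000 where the rest of the white matter cells held 6.26, 5.42, 4.35 and 3.98. Marcks stood at 617, 509, 260 and 446 in them against 57.4, 78.3, 18.5 and 27.4 in the rest. Opalin, which belongs to the rule, was lower in them, at 82.5, 103, 65.7 and 70.9 against 133, 146, 101 and 122.

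In an alternative chosen after seeing the data, these cells were left out. Gpr17 then still fell by 1.37 and Marcks fell by 1.5 on the log2 scale, while Tnr stood at -0.41 (edgeR adjusted p = 0.458) and was no longer called. The number of calls was 38 of 371 genes. Gpr17 was thus still called without the cells richest in it, and Tnr was not.

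Markers of other cell types moved in part. The water channel gene Aqp4, which marks astrocytes, fell from 18.8 and 22.2 to 7.31 and 9.29 per 10000 in white matter oligodendrocytes (log2 -1.22 ± 0.22, edgeR adjusted p = 2.29e-06), and the other 7 of 8 astrocyte genes were not called. The summed astrocyte list stood at 104, 99.8, 78.3 and 88.3, and in astrocyte-rich cells Aqp4 was at 160, 191, 155 and 142. With cells holding any Aqp4 transcript left out, also an alternative added after seeing the data, C4b rose by 3.51 and Gpr17 fell by 2.03 on the log2 scale. The 11 microglia genes held no call, and their sum was 62.8, 61.6, 59.9 and 65.4. Of 11 vascular genes 1 fell, the smooth muscle actin gene Acta2, and with library totals none was called. Of 3 neuroblast genes 1 fell, Sox11, where 5.65% of all genes tested did. Outside these lists the transporter gene Abcg2 fell by 1.37 and the integrin gene Itga1 fell by 1.25 on the log2 scale. Of 17 cytokine and NF-kB genes tested, Il33 rose, Tnf fell by 1.36 and the chemokine gene Cxcl12 fell by 0.97 on the log2 scale.

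Calls in further lists, beside the cytokine and NF-kB list given above, were as follows. Of 8 complement genes only C4b was called, and the list's median change was 0.39. None of the 5 MHC class I genes was called, with a median of 0.40, and B2m stood at 4.92, 7.53, 9.21 and 7.99 per 10000 and H2-D1 at 0.939, 0.620, 0.905 and 1.14. None of the 9 interferon response genes was called, with a median of -0.36. Of 6 reactive glia genes only Serpina3n was called, and Gfap stood at 102, 80.8, 137 and 106 (log2 0.50, edgeR adjusted p = 0.0981). None of 4 lipid carrier genes was called, and Apoe stood at 103, 86.5, 106 and 130. Cdkn1a, a cell cycle inhibitor gene, stood at 0.769, 1.09, 2.38 and 1.10 (log2 0.97, adjusted p = 0.0779), with Young replicate 2 and Aged replicate 2 level with each other. The 11 further oligodendrocyte genes had 1 call up, Il33, and 1 down, Sirt2, and a median of 0.14. Against these, 10.8% of the genes tested were called.

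**Figure D3:**
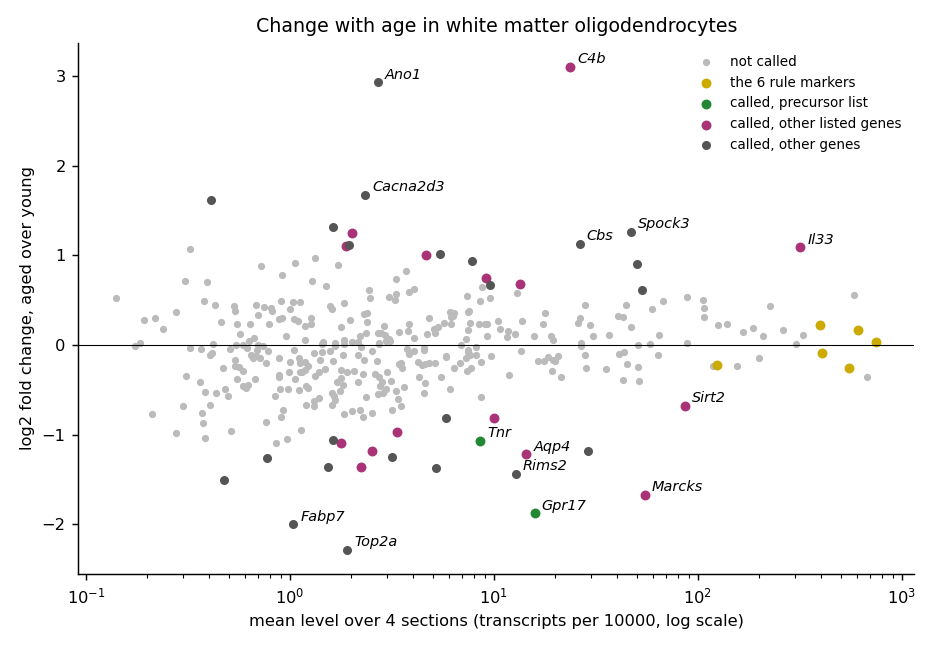
Change with age (y axis, log2 fold change, Aged over Young) against mean level over the 4 sections (x axis, transcripts per 10000, log scale) for each gene tested in white matter oligodendrocytes. Coloured and dark points are called (edgeR adjusted p under 0.05), grey points are not, and the 6 rule markers are in yellow whether called or not. C4b and Ano1 stand highest, and Top2a, Fabp7 and Gpr17 lowest.

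The number of calls leaned on single sections. Without Young replicate 2 the test called 4 genes (C4b, Ano1, Gpr17 and Top2a), and without Young replicate 1 it called 21. C4b, Ano1 and Gpr17 were called under all 21 alternatives to the test, the scaling and the cells, while Il33 was called under 18 (not per cell volume, without Young replicate 1 or without Young replicate 2) and Marcks under 20 (not without Young replicate 2). Sst was called lower only through Young replicate 1, with values of 11.8, 3.57, 3.80 and 4.24, and turned to 0.21 higher on the log2 scale without it. With library totals in place of the trimmed mean scaling the calls were 8 higher and 16 lower, with totals that leave out the 6 markers 13 and 25, and per cell volume 2 and 57.

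Some changes with age differed between the 2 sets of oligodendrocytes. Of 376 genes, 11 had a difference in change that passed edgeR's test of the difference itself (2.93%). The rise of C4b was larger in white matter by 0.94 ± 0.17 on the log2 scale (edgeR adjusted p = 0.000699), and that of Ano1 by 1.13 ± 0.28 (adjusted p = 0.0149). The fall of Marcks was deeper by 0.67 ± 0.15, that of Rims2 by 0.90 ± 0.18 and that of Fabp7 by 1.54 ± 0.33. For Aqp4 the levels were 18.8, 22.2, 7.31 and 9.29 in white matter and 11.7, 12.5, 11.5 and 9.93 elsewhere, a difference in change of -1.08 ± 0.17. For Il33 (0.15 ± 0.16) and Gpr17 (-0.18 ± 0.19) the difference in change did not pass (adjusted p = 0.799 for both). These calls were the least stable. None was made without Young replicate 1, without Young replicate 2, with library totals, with totals without the markers, or with a 60% neighbour cut, and 41 were made without Aged replicate 2.

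Between white matter and other oligodendrocytes, Thbs4, Gfap and Igfbp5 were the furthest above, and the spiny neuron gene Penk was among the furthest below. Of 375 genes outside the 6 rule markers, 202 were called (53.9%), with 109 higher (29.1%) and 93 lower (24.8%) in white matter. The count was 177 with library totals and 177 with totals without the 6 markers, 148 without Aged replicate 2, and 104 of 323 genes with the marker share raised to 30%. The 2 sets come from the same sections, and the neighbours differ by the rule. The part of RNA from neighbours in this comparison was not tested. The split moved with the scaling, to 42 higher and 135 lower with library totals and to 58 and 119 with totals without the 6 markers, as the median gene moved from 0.07 to -0.17 and -0.09 on the log2 scale.

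Thbs4, a thrombospondin gene that astrocytes are known to express, stood at 14.1, 8.85, 13.5 and 10.4 per 10000 in white matter and 4.23, 2.40, 2.08 and 1.19 elsewhere (log2 2.56 ± 0.20, edgeR adjusted p = 3.02e-07). Gfap, the astrocyte intermediate filament gene, stood at 102, 80.8, 137 and 106 against 26.5, 25.7, 41.0 and 32.7 (log2 2.0 ± 0.08, adjusted p = 6.96e-10). Igfbp5, which encodes a growth factor binding protein, stood at 33.4, 26.4, 24.6 and 27.1 against 10.1, 9.87, 8.12 and 9.97 (log2 1.79 ± 0.09). For the filament gene Vim the log2 difference was 1.26 ± 0.11. In each of these genes the lowest white matter value was above the highest value of the other cells. Of the 8 astrocyte list genes, in contrast, none was higher and Slc6a11, Itih3 and Plpp3 were lower in white matter, with a summed level of 104, 99.8, 78.3 and 88.3 against 151, 139, 148 and 142. In astrocyte-rich cells Gfap was at 169, 164, 175 and 148 and Thbs4 at 22.6, 16.4, 17.8 and 11.3. The part of astrocyte RNA in the Gfap and Thbs4 levels was not tested.

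The lineage genes were higher in white matter as well. All 11 of the further oligodendrocyte genes were called higher, with a median of 0.43 against 0.08 over all genes tested with the rule markers, from Dbndd2 (0.77 ± 0.07) and Cryab (0.69 ± 0.07) to Tspan2 (0.60 ± 0.06) and Efnb3 (0.28 ± 0.06). With library totals 7 of the 11 were called higher and none lower. Of the 5 precursor genes, Gpr17 (1.20 ± 0.11), C1ql1 (1.02 ± 0.14), Pdgfra (1.0 ± 0.11) and Tnr (0.90 ± 0.11) were higher under all 3 scalings. Precursor-rich cells were 4.26%, 4.73%, 2.25% and 2.63% of the neighbours in white matter and 2.63%, 2.58%, 1.93% and 1.79% elsewhere. Top2a (1.29 ± 0.19) and the transcription regulator gene Id3 (0.87 ± 0.12) followed, then C4b (0.83 ± 0.17), whose excess lay in the Aged sections, and Il33 (0.44 ± 0.07).

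The 93 genes below included all 9 neuron genes and all 8 spiny neuron genes, with medians of -2.21 and -3.40. Penk, an opioid peptide gene of spiny neurons, stood at 0.317 to 0.620 per 10000 in white matter and 8.14 to 9.67 elsewhere (log2 -4.01 ± 0.15). Rgs4 (-3.62), the dopamine receptor gene Drd1 (-3.58), the GABA synthesis gene Gad2 (-3.35) and the synaptic gene Cplx2 (-3.28) lay in the same range. Neuron-rich cells made up 5.25% to 6.36% of the neighbours in white matter and 41.2% to 44.9% elsewhere, and the summed neuron list was 36.7 to 45.7 against 208 to 238 per 10000. The microglia list is the one whose count depended most on scaling, with 10 of 11 genes higher with the trimmed mean scaling, 4 with totals without the 6 markers and 1 with library totals. Apoe, a lipid carrier gene, was slightly lower in white matter (log2 -0.17 ± 0.06, edgeR adjusted p = 0.0399).

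**Figure D4:**
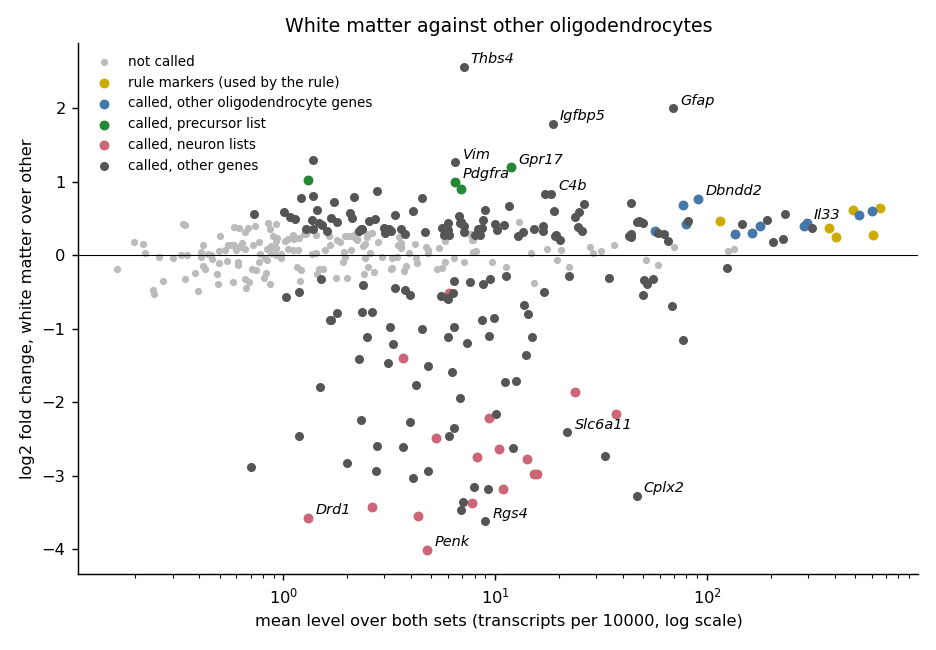
Difference between white matter and other oligodendrocytes (y axis, log2 fold change) against mean level (x axis, transcripts per 10000, log scale) for each gene tested over 4 sections. Coloured and dark points are called (edgeR adjusted p under 0.05). The yellow markers were used by the rule. Thbs4, Gfap and Igfbp5 stand above, and the neuron lists in red run down to Penk at -4.01.

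Within white matter, cells were split by how many oligodendrocytes surrounded them. The core, with at least 80% oligodendrocyte neighbours, held 87, 65, 122 and 104 cells, and the edge, with 40 to 60%, held 833, 882, 1055 and 1009. Outside the rule markers, 7 of 294 genes were called (2.38%). Igfbp5 was lower in the core in every section, at 17.1, 9.74, 6.71 and 9.86 against 34.7, 29.8, 27.9 and 29.1 per 10000 (log2 -1.43 ± 0.20, edgeR adjusted p = 0.00424). S100b (-0.84), the lipid droplet protein gene Plin3 (-0.79), Pdgfra (-1.20), Gfap (-0.42) and Cplx2 (-1.93) were lower in the core too, and Ptprd (0.21) was higher. Ptprd was not called by DESeq2, with no filter, with totals without the 6 markers, or without Young replicate 1, Aged replicate 1 or Aged replicate 2. Without Aged replicate 1, 3 of them were called, and without Young replicate 2, 12 genes were. C4b in the core was 2.10, 5.16, 87.6 and 67.1 against 6.0, 5.72, 45.3 and 31.3 at the edge, which is higher in the core of both Aged sections. In Young the core held only 33316 and 17458 panel transcripts, so its C4b values rest on very few transcripts and give no direction. The difference between the ages was not tested, and over all sections C4b did not pass (log2 0.53 ± 0.33, adjusted p = 0.538). Il33 did not pass either (-0.04 ± 0.06).

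The band and the compact patches were compared after the data had been seen. Of 346 genes 18 were called (5.20%), 13 higher in the band and 5 higher in the patches. Thbs4 was far higher in the band, at 16.7, 9.73, 15.6 and 11.7 per 10000 against 0.384, 0.257, 0.540 and 0.524 in the patches (log2 5.02 ± 0.26, edgeR adjusted p = 1.27e-08). It was called under all 7 alternatives of this comparison. Igfbp5 (1.22 ± 0.13) and Clu, a secreted chaperone and lipid carrier gene (1.13 ± 0.09), were higher in the band as well, as were Thrsp (1.95), Slc38a1 (1.46), Ctxn1 (1.26), Rims2 (1.16) and the deiodinase gene Dio2 (1.15).

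Crym, a thyroid hormone binding protein gene, ran the other way, at 0.386, 0.248, 0.132 and 0.311 in the band against 2.69, 2.05, 6.12 and 6.64 in the patches (log2 -3.88 ± 0.43, edgeR adjusted p = 4.03e-05). S100b (-0.71 ± 0.12), Rgs5, Penk and Marcksl1 were also higher in the patches. None of the 11 further oligodendrocyte genes and none of the 6 rule markers was called between them. The summed precursor list was 60.6, 70.6, 37.4 and 39.3 in the band and 110, 80, 39.1 and 37.9 in the patches.

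C4b rose in both, from 4.36 and 5.24 to 43.5 and 30.6 per 10000 in the band and from 4.35 and 3.59 to 98.1 and 54.3 in the patches. Gfap stood at 110, 78.5, 136 and 104 in the band and at 41.7, 48.7, 134 and 89.8 in the patches, where both Aged sections lay above both Young sections. The rise with age was smaller in the band by 1.32 ± 0.27 for C4b and by 1.04 ± 0.22 for Gfap on the log2 scale, but neither passed edgeR's test of the difference over 363 genes (adjusted p = 0.102 for both). That test called 0 genes (0%), with 21 at an unadjusted p under 0.05, and DESeq2 called 1, which was Gfap. Without Aged replicate 2 it called 8, C4b and Gfap among them, and without Young replicate 2 it called 2.

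**Figure D5:**
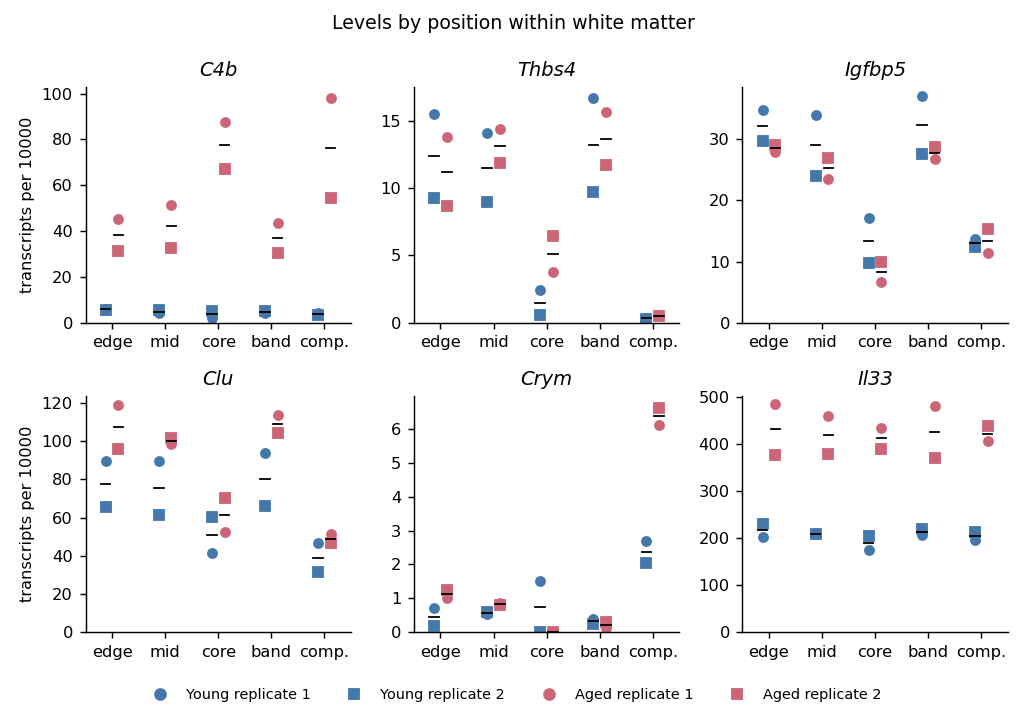
Level of 6 genes (transcripts per 10000, y axis from 0) at the edge, middle (60 to 80% oligodendrocyte neighbours) and core of white matter and in the band and the compact patches (comp.). Circles and squares are replicates 1 and 2, blue is Young, red is Aged and the bar is the mean of 2 sections. Thbs4 is near 0 and Crym is raised in the compact patches, Igfbp5 is lower in the core and the patches and Clu in the patches (Clu was not called between core and edge), and C4b in Aged sections is highest in both of these, while the Il33 points of one age stay close together across positions.

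Nearness to microglia was examined last. White matter oligodendrocytes within 20 units of a microglia-rich cell numbered 97, 65, 158 and 136, and those farther than 50 units 1115, 1218, 1461 and 1663. Of 324 genes 11 were called (3.40%). Of the 7 higher near microglia, Laptm5 (1.42 ± 0.18), Csf1r, P2ry12, Ctss and Ctsd are genes of microglia or lysosomes, and the summed microglia list was 91.9, 183, 86.6 and 158 near against 59.1, 58.0, 56.0 and 63.1 far. The 4 lower genes were Clu (-0.46), Il33 (-0.21), Sptbn1 (-0.17) and Tspan2 (-0.14), all genes with a level over 30 per 10000. These lower calls were not stable, with 1 left by DESeq2 (Clu), 1 without Young replicate 1, 0 without Aged replicate 1 and 2 without Aged replicate 2, and Il33 was not called in the first 3 of these. The part of microglial RNA in these calls was not tested. C4b did not pass, at 4.53, 4.25, 68.6 and 36.4 near and 3.90, 5.12, 46.3 and 34.7 far (log2 0.20 ± 0.15, edgeR adjusted p = 0.625). Without either Aged section 5 genes were called, and without Young replicate 1, 6 genes.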

How the data were processed

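Per the methods, the authors imaged 10-micrometre coronal sections with MERFISH, decoded transcripts and segmented cells with the maker's software. The deposited tables give raw counts of each gene per segmented cell, with cell volume and centre, which are the authors' segmentation signal. A deposited table of mean signal per gene and section matched the means of the counts in each section, which served as a check that titles and tables agree, since section names written inside the Young tables carry other numbers. No genome build is named. The authors' filter (10 genes, 50 cubic micrometres) was applied, and no doublet caller was run. Sections shared 0 cell identifiers. Sections held 18816375 to 36116711 transcripts.

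Counts were summed by section and tested with edgeR 4.0.16 (TMM, filterByExpr, quasi-likelihood, Benjamini-Hochberg over all genes tested). Position comparisons kept section as a block. DESeq2 1.42.0, limma 3.58.1, other scalings, cell rules and leaving out each section were alternatives. Simulated age data recovered 98.5% of genes changed by 1 on the log2 scale and 43.9% of those changed by 0.5, and simulated differences in change 87.9% and 34.8%. The simulation changed 200 of the 383 genes and gave every gene the same fixed spread, with no section effect. Recovery in the real data may therefore be lower. Single values had two-sided exact permutation tests in scipy 1.17.1. Counting error only is covered by the shares of cells. Named were the rule markers, fixed lists and, per comparison, up to 10 genes each way by size among those called at 1 or more per 10000. Results of a few genes are not reported here. The members and lists were chosen with earlier results of these data known.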

Additional observations from a re-analysis of the deposited data

Results flagged for a closer look

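The change with age differed between white matter and other oligodendrocytes, by an interaction term in edgeR, for 11 genes. On the log2 scale the difference (white matter minus other) was 1.15 for Thbs4, 1.13 for Ano1, 0.94 for C4b, 0.91 for Cacna2d3 and 0.62 for Syp, and -1.54 for Fabp7, -1.11 for St8sia3, -1.08 for Aqp4, -0.90 for Rims2, -0.67 for Marcks and -0.65 for Cntn1. Thbs4 stood at 14.1, 8.85, 13.5 and 10.4 per 10000 in white matter and at 4.23, 2.40, 2.08 and 1.19 elsewhere, so the difference came from a lower level in the Aged sections outside white matter. Cacna2d3 stood at 1.08, 1.26, 4.10 and 2.94 in white matter and at 4.79, 6.41, 9.23 and 8.76 elsewhere. Syp, a synaptic vesicle gene, stood at 7.60, 6.65, 9.98 and 12.4 in white matter and 35.8, 39.0, 40.1 and 38.6 elsewhere. With 2 sections at each age no group was large enough to test a single section as an outlier.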

How the results depend on the processing

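Genes called with age in white matter oligodendrocytes numbered 40, against 24 with library totals, 20 with markers at 30% or more of counts (asked of the cells alone) and 4 to 29 with each section left out. In other oligodendrocytes the 19 became 30 with library totals, 93 per cell volume and 2 (without Aged replicate 1) to 22. Between white matter and other oligodendrocytes the 202 became 104 with markers at 30% and 148 to 195 with each section left out. Differences in the change with age (11) became 0 with library totals, with totals without the 6 markers and with 60% neighbours, 17 with a radius of 50 units, and 0 to 41 with each section left out. Core against edge gave 3 to 12 with each section left out, nearness to microglia 19 with no filter, 20 within 15 units and 5 to 12 with each section left out, and band against patches in the change with age 1 by DESeq2, 2 with no filter and 0 to 8 with each section left out.

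Replicate numbers were not taken to pair the sections: deviations of same-numbered sections had a correlation of -0.0829, a single value, since with 2 sections an age both numbers give the same one. With the replicate number as a block the age test called 21 genes and the difference in change 17.

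The difference in the share of kept cells (0.932 percentage points) became 1.13 with 5 marker counts, 0.533 with 20, 0.720 with 60% neighbours and -0.0838 with markers at 30% for cells and neighbours. That of precursor-rich neighbours (-2.05) became -1.71 with a 10% list share. The differences in cells with a transcript were 33.6 for C4b, 12.3 for Il33 and -8.87 for Gpr17 when thinned to 200, and 27.5, 9.35 and -10.7 unthinned.

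Directions turned on the log2 scale for Meg3 (-0.039 with markers at 30%), for Ctss (-0.015), Gfap (-0.25), B2m (-0.14), H2-D1 (-0.21), Apoe (-0.29), Gatm (-0.13) and Olig1 (-0.52) per cell volume, and for Sst (-1.35 to 0.21 with each section left out). In the difference in change, Gpr17 turned to 0.11 with markers at 30%, and with each section left out ran from -0.46 to 0.074 and Il33 from -0.032 to 0.31. Il33 turned to 0.054 for core against edge by DESeq2 (-0.13 to 0.011 with each section left out) and to -0.00793 for band against patches by DESeq2 (-0.018 to 0.12). The cause was not tested. Of 127 single-gene results, 114 never turned. Depth limits the core, the cells near microglia and the compact patches, each with 65 to 296 cells a section, and lower Aged depth limits rare genes.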

Other observations

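Between white matter and other oligodendrocytes, of 6 lysosomal genes 4 were higher in white matter (Ctsd and Ctss among them). Of 8 complement genes 5 were higher (C4b and C1qa among them) and of 9 interferon response genes 5, with Ly6e lower. Of all genes tested outside the 6 rule markers, 29.1% were called higher and 53.9% in either direction. With library totals 2 of the lysosomal, 2 of the complement and 1 of the interferon response genes were higher, and 1 of the last was lower. Of 3 neuroblast genes all 3 were lower. With age, none of 3 MHC class II genes, 7 genes of cell cycle arrest and survival, 8 spiny neuron genes or 3 ependymal genes was called in white matter, and of 10 sirtuin and NAD genes only Sirt2 was. Of all genes tested with age in white matter outside the 6 rule markers, 10.8% were called.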
